A study of Mus musculus with 4 samples.

Results

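Natural killer (NK) cells of mice labelled Irf4-/- were compared between an animal group that had received B16-F10 cells and one that had not. B16-F10 is a mouse melanoma line that seeds the lung when it is given into a vein. The members are the genes whose mean level reached 5 CPM (the read count scaled to a common library size) over the 2 libraries of this pair, which left 9697 of the 35275 gene identifiers in the tables (27.5%). The filter was set on the level and not on the difference. At its edge Plin3, with a mean of 5.001 CPM, was kept and Ramp1, with 4.996 CPM, was not.

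The series holds 4 bulk RNA sequencing libraries, 1 for each combination of genotype label (WT C57BL/6 or Irf4-/-) and injection. Cells came from the spleen, were enriched with a kit and sorted as CD3-negative, NK1.1-positive cells, on day 20 after injection in the injected groups. Control mice of either genotype were not injected, so the pair differs in the tumour cells and in the injection itself. The labels give neither the age or sex of the mice, nor the number of animals behind a library, nor the part of Irf4 that was deleted. With 1 library per group no test is possible. A difference compares 2 libraries, not 2 conditions, and the 95% intervals cover counting error only. Total counts were 15878159 in the Irf4-/- control library and 18639455 in the Irf4-/- injected library. For comparison the WT control library had 21104881 and the WT injected library 18640811.

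NK cells are innate lymphocytes that kill virus-infected and transformed cells through granules of perforin and granzymes. In the spleen they mature from cells that carry CD27 and the interleukin 7 receptor to cells that carry CD11b, KLRG1 and CX3CR1. IRF4 is a transcription factor of the interferon regulatory factor family, best known for the differentiation of activated B and T lymphocytes. Heat shock chaperones refold damaged proteins, and immediate early genes are the first to be transcribed after a cell is stimulated, including by handling.

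On chromosome 13 (GRCm38, 30749226 to 30766976), Irf4 itself, ENSMUSG00000021356, gave 188 counts in the control and 236 in the injected library of the pair labelled Irf4-/-. These are 11.7 and 12.7 CPM, a log2 ratio of injected over control of 0.11 (95% counting interval -0.17 to 0.40). The WT libraries had 93 and 57 counts, at larger total counts. Irf4 transcript was thus higher, not lower, in the libraries labelled Irf4-/-. Counts over the whole gene cannot show whether a part of it is missing. Both libraries of the pair carry the same genotype label, so the direction of each ratio rests on the injection labels alone.

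The NK cell label fitted the markers. All 14 listed NK markers passed 5 CPM, and their summed level was 18772 CPM in the control and 19278 CPM in the injected library. Ncr1, which encodes the activating receptor NKp46, was at 1271 and 1464 CPM. Lists of markers for other cells were not empty. The B cell list summed to 480 CPM in the control and 468 in the injected library, of which Ighm made up 188 and 218 CPM. The T cell list summed to 577 and 622 CPM, of which Trbc1 made up 289 and 296 CPM. Cd3e, a defining T cell gene, had 5.18 and 6.07 CPM. The dendritic cell list summed to 1912 and 1976 CPM, most of it from Itgax and Irf8, which NK cells also express, while Flt3 and Clec9a were under 2 CPM in both. No marker of neutrophils or of basophils and mast cells reached 5 CPM. Mlana, Tyr, Tyrp1, Dct and Slc45a2, which define melanocytes and melanoma, had 0 counts in all 4 libraries, which allows up to 0.161 CPM in the Irf4-/- injected library. The other 5 of the 10 listed melanoma markers had counts. Pmel, a melanosome gene, had 3.06 and 3.54 CPM, a ratio of 0.21 (-0.34 to 0.78), Gpnmb, Mitf and Sox10 lay below 3 CPM, and Kit, which NK cells also express, had 98.4 and 171 CPM. With Kit included the list summed to 104 and 179 CPM.

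Injected and control libraries lay close together. The middle 50% of genes had log2 ratios between -0.11 and 0.13, with a median of 0.01 and an SD over genes of 0.23. Of the 9697 genes, 7963 (82.1%) differed by less than 1.2-fold. By the counting interval alone 2145 genes were higher (22.1% of those measured) and 1836 lower (18.9%) in the injected library. At a ratio of at least 1.5-fold 142 genes were higher (1.46%) and 116 lower (1.2%). At 2-fold the numbers were 13 (0.134%) and 21 (0.217%). These are counts by a rule of size, with the interval also off 0. Every count of list members with an interval above or below 0 stands against the 22.1% and 18.9% of all genes, and no list was tested. For lists of abundant genes this is not a like comparison, because intervals were off 0 more often at high levels.

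How often a gene stood apart depended on its level. Between 5 and 10 CPM 119 of 1064 genes (11.2%) were at least 1.5-fold apart, with a median half-width of the counting interval of 0.37 on the log2 scale. Between 50 and 100 CPM it was 12 of 2023 genes (0.593%), with a half-width of 0.12. The share with an interval off 0 rose from 30.5% between 5 and 10 CPM to 93.2% at 1000 CPM or more. Genes called at 1.5-fold had a median mean level of 10.8 CPM when higher and 11.3 CPM when lower, against 44.6 CPM for all measured genes. Their lengths were near those of all genes, with medians of 2930 and 3037 bases against 3177. The calls were mostly protein-coding, 129 of the 142 higher and 105 of the 116 lower genes, against 9351 of all 9697. Genes that are not protein-coding were 13 of the higher and 11 of the lower calls. In both directions this is a larger share than the 346 among all 9697.

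**Figure D1:**
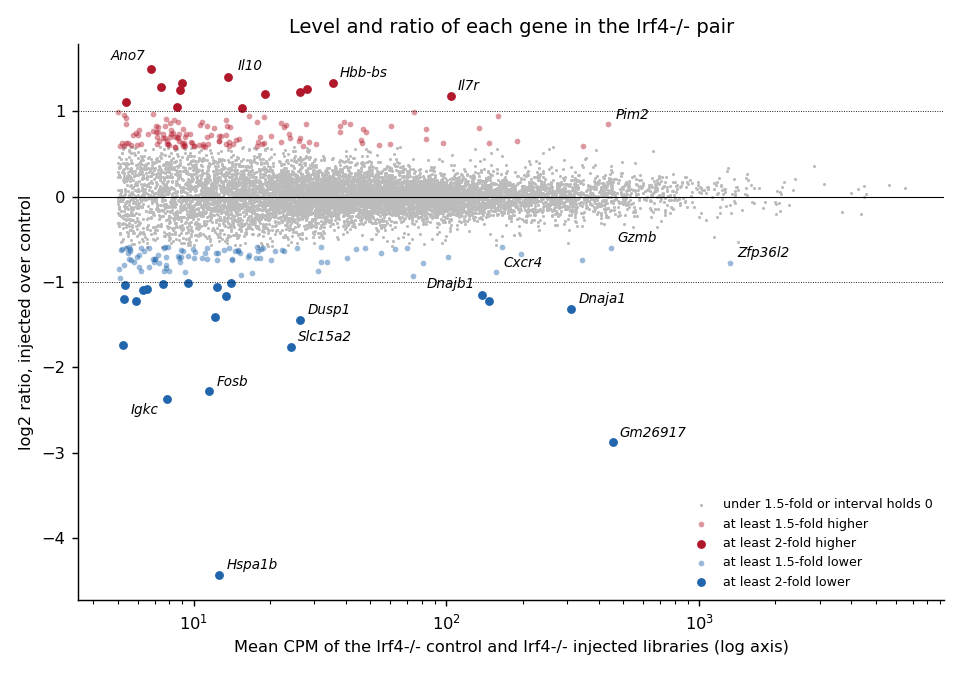
Each point is 1 gene, with the mean CPM of the 2 Irf4-/- libraries on a log axis and the log2 ratio of injected over control on the vertical axis; dotted lines mark 2-fold. Hspa1b lies lowest at -4.43 and Ano7 highest at 1.49, and the scatter widens toward low levels.

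The heat shock chaperones held the largest single ratio, and most of them were lower in the injected library. Promoter sequences of the 4 members that were at least 2-fold lower are shown first because heat shock factor 1 binds repeats of GAA and TTC in such promoters. The RefSeq windows (GRCm38.p6) run from 250 bases before to 50 bases after the annotated start, 5′ to 3′ on the gene's strand. Capitals mark each GAANNTTC or TTCNNGAA, the head-to-head and tail-to-tail pairs of that repeat, which are their own reverse complements. The windows are chr17:34959189-34959488 (minus strand) for Hspa1b, chr4:40722218-40722517 (plus) for Dnaja1, chr5:149636287-149636586 (minus) for Hsph1 and chr8:83607925-83608224 (plus) for Dnajb1.
Hspa1b: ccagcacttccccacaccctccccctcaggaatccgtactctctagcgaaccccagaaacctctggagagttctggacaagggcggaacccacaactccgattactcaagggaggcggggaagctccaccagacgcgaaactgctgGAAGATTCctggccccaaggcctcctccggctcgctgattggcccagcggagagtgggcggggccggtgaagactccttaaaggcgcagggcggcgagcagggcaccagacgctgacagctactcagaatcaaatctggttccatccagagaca
Dnaja1: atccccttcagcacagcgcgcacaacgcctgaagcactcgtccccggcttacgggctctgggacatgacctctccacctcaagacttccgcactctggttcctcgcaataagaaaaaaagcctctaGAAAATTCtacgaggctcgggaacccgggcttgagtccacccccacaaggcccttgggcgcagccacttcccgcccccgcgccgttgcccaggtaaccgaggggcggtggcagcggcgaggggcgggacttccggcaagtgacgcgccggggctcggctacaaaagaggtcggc
Hsph1: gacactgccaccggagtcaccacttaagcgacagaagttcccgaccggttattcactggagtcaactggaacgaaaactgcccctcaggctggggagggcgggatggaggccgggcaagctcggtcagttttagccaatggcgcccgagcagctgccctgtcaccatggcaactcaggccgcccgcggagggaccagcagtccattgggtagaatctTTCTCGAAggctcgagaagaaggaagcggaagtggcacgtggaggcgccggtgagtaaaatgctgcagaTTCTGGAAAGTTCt
Dnajb1: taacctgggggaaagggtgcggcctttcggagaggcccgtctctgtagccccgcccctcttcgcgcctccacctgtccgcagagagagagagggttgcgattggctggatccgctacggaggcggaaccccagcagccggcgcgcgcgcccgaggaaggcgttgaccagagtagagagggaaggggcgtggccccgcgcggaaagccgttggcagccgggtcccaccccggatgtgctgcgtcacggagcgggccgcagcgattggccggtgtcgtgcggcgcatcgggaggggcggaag
Hspa1b and Dnaja1 each held 1 match, at bases 147 to 154 and 127 to 134 of the window. Hsph1 held 3, of which the last pair overlap at bases 287 to 299, and Dnajb1 held none in this window. Dnaja1 has 3 windows in the table, Hsph1 and Dnajb1 2 each, and the first listed is shown. Of 21 measured chaperone genes with a window, 9 (42.9%) held either pair, against 890 of 7669 measured genes (11.6%) and 15.1% of all 27025 genes with a window. A match describes the letters and not a bound site.

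Hspa1b, an inducible member of the HSP70 family (chromosome 17, 34956436 to 34959238), had 388 counts in the Irf4-/- control and 19 in the injected library, or 24.2 and 1.02 CPM. The log2 ratio was -4.43 (-5.32 to -3.91). Its neighbour Hspa1a, a near-identical copy whose reads may be split with it, had 57 and 3 counts and stayed below the 5 CPM minimum. The WT pair showed the same order at a higher control level, with 99.2 CPM in control and 0.969 CPM in injected. Both injected libraries were thus near 1 CPM.

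Partners of HSP70 and members of the HSP90 system were also lower. Dnaja1, an HSP40 protein that hands clients to HSP70, had 445 CPM in the control and 179 in the injected library, a log2 ratio of -1.31 (-1.37 to -1.25). Dnajb1, another HSP40 protein, had 191 and 85.9 CPM. For Hsph1, an HSP110 nucleotide exchange factor, the values were 205 and 88.4 CPM. Cacybp had 97.0 and 51.1 CPM, Hsp90aa1, the inducible cytosolic HSP90, 430 and 258, and the HSP40 gene Dnajb4 84.0 and 55.2. In each of these 6 genes the WT pair had the same direction.

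Over the whole list of 29 chaperone genes, 26 passed the minimum, with a median log2 ratio of -0.40 against 0.01 for all genes. Counting intervals lay below 0 in 21 of the 26 and above 0 in 0, against 18.9% and 22.1% of all genes. The constitutive genes Hspa8 (1681 and 1162 CPM) and Hsp90ab1 (1335 and 960 CPM) were at -0.53 and -0.48. Bag3, a co-chaperone that is itself heat-inducible, was at 24 and 24.6 CPM with a ratio of 0.03 (-0.17 to 0.23), and the chaperonin subunit Cct5 was at -0.05 (-0.13 to 0.02). The same 26 genes had a median of -0.72 in the WT pair, and 24 of 26 had the same sign there. The time between death of the animals and lysis of the cells is not in the labels, and its part in these values was not tested.

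Immediate early genes split instead of moving together. Of 40 measured members 12 had intervals above 0 (30%) and 15 below (37.5%), against 22.1% and 18.9% of all genes, and the median was 0.01. The AP-1 subunit gene Fosb (chromosome 7, 19302696 to 19310051) had 307 counts in the control and 72 in the injected library, or 19.2 and 3.87 CPM, a log2 ratio of -2.28 (-2.70 to -1.93). Dusp1, a phosphatase of mitogen-activated protein kinases, had 619 and 264 counts, or 38.6 and 14.2 CPM, with -1.44 (-1.66 to -1.24). Fos, another AP-1 subunit gene, had 40.3 and 22 CPM and -0.87. Zfp36l2, which encodes a protein that promotes mRNA decay, had 1674 and 978 CPM and -0.78, and the phosphatase gene Dusp2 was at -0.55.

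Promoter windows of the 2 members that were at least 2-fold lower are given because such genes are classic targets of cyclic AMP response element binding protein. Capitals mark TGACG on either strand, the core of that element. Fosb lies at chr7:19309996-19310295 (minus strand) and Dusp1 at chr17:26508423-26508722 (minus).
Fosb: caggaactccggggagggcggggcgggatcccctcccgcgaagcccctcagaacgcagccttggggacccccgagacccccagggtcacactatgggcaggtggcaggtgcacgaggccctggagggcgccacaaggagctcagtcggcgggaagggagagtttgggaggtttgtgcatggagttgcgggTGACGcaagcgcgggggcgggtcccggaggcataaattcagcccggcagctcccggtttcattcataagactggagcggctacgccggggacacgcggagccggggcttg
Dusp1: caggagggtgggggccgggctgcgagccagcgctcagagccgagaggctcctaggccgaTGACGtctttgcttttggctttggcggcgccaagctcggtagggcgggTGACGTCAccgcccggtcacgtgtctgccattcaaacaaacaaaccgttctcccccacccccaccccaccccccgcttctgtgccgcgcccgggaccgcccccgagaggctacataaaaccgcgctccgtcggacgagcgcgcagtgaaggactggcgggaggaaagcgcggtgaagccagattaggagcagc
The core was found once in Fosb and at 3 places in Dusp1, of which 2 overlap as the full palindrome TGACGTCA. Among measured immediate early genes 16 of 30 with a window (53.3%) held it, against 34.9% of all measured genes. Of genes at least 1.5-fold lower 25% held it, and of those higher 18.5%.

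The EGR family went the other way. Egr2, a zinc finger factor induced by antigen receptor and kinase signalling, had 5.81 CPM in the control and 11.0 in the injected library, a log2 ratio of 0.90 (0.56 to 1.29). Egr1 had 16.6 and 29.9 CPM and 0.84 (0.63 to 1.06). Egr3 had 6.99 and 11.4 CPM and 0.70 (0.37 to 1.05). Gadd45g, a stress-inducible gene of T and NK cells, had 75.7 and 117 CPM and 0.63. In the WT pair these 4 genes lay between -0.24 and 0.12. In WT control and WT injected Egr2 had 9.80 and 8.29 CPM, Egr1 25.4 and 27.7 and Egr3 9.28 and 9.15. For each of these EGR genes the Irf4-/- control library was thus the lowest of the 4 libraries. Gadd45g had 21.2 and 19.8 CPM in WT, below both Irf4-/- libraries. Jun (0.14), Nr4a1 (0.15), Nfkbia (0.00) and Tnfaip3 (-0.03) had intervals that held 0 in the Irf4-/- pair.

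Cell division genes were lower as a group. In the mitosis list 28 of 39 measured genes (71.8%, against 18.9% of all genes) had intervals below 0 and 0 above, with a median log2 ratio of -0.46. Aurka, the centrosomal Aurora kinase, had 11.8 and 7.25 CPM, a ratio of -0.69 (-1.03 to -0.38). The mitotic kinesin Kif11 had 52.9 and 34.6 CPM, and its interval of -0.76 to -0.46 was narrower at that level. Tpx2, a spindle assembly factor, had 31.0 and 20.4 CPM, and Cenpf, of the kinetochore, 25.4 and 16.4. Plk1 (0.06) and Cdc20 (-0.05) had intervals that held 0.

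In the S phase list 26 of 38 (68.4%) had intervals below 0 and 0 above, with a median of -0.23. Chek1, the DNA replication checkpoint kinase, had 162 and 92 counts, or 10.1 and 4.94 CPM, a ratio of -1.02 (-1.42 to -0.66). Ccne2, a cyclin of the entry into S phase, had 11.1 and 6.50 CPM, and the licensing factor Cdc6 15.3 and 9.61. Subunits of the replicative helicase and clamp were closer to 0, with Mcm4 at 0.03 and Pcna at -0.05, both with intervals that held 0. The WT pair had medians of -0.56 for S phase and -0.76 for mitosis over the same genes. In bulk samples a smaller share of dividing cells and less of these transcripts per cell cannot be told apart.

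The windows of Aurka and Chek1 are shown because these members had the largest ratio in the mitosis and S phase lists. Capitals mark CCAAT, bound by NF-Y, and TTTGAA, the core of the cell cycle homology region of mitotic genes, on either strand. Aurka lies at chr2:172370521-172370820 (minus strand) and Chek1 at chr9:36726609-36726908 (minus).
Aurka: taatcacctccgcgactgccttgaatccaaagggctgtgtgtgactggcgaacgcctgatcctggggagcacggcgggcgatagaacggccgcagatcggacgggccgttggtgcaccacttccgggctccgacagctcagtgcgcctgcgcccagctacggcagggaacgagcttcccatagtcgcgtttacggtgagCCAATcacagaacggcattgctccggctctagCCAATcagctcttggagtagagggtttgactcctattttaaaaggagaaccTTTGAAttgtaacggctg
Chek1: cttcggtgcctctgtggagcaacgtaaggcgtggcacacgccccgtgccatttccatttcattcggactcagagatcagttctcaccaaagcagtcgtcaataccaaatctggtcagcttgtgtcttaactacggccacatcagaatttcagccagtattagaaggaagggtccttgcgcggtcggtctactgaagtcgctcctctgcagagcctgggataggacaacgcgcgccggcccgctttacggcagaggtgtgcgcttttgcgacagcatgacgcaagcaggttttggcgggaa
Aurka held 2 CCAAT boxes and 1 TTTGAA, and Chek1 held neither motif, unlike most of its list for CCAAT. Of 34 measured mitosis genes with a window 29 (85.3%) held CCAAT and 25 (73.5%) TTTGAA, against 39.3% and 12% of the 7669 measured genes. In the S phase list the shares were 65.6% and 9.38% of 32. Among the 84 genes with a window that were at least 1.5-fold lower 41.7% held CCAAT and 21.4% TTTGAA, and among the 108 higher ones 35.2% and 14.8%.

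**Figure D2:**
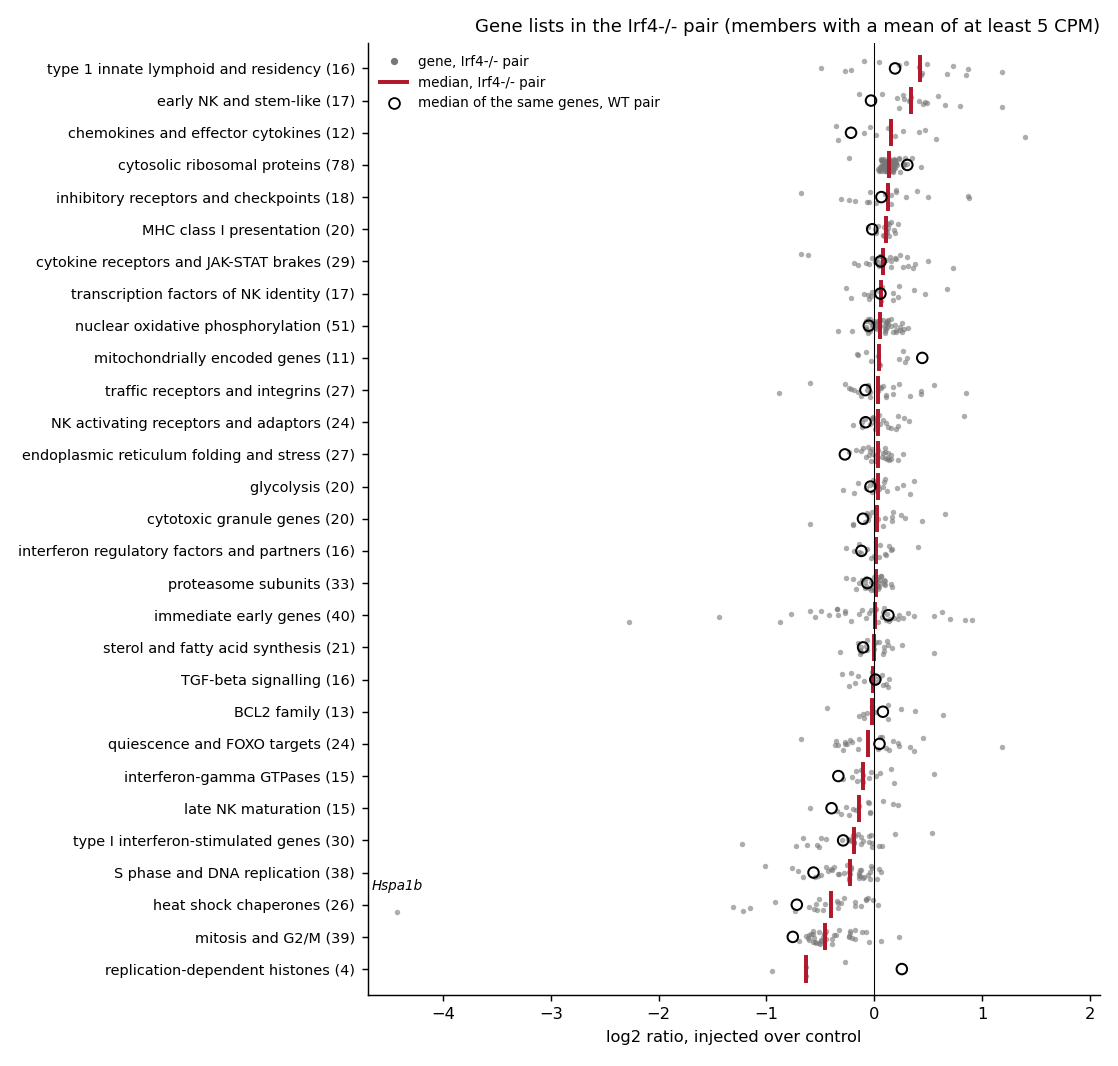
Each grey point is the log2 ratio of 1 gene in the Irf4-/- pair, red bars are list medians in that pair and open circles the medians of the same genes in the WT pair; the number of genes is in brackets. Heat shock, mitosis and S phase lists lie left of 0 in both pairs, and the early NK list lies at 0.34 in the Irf4-/- pair and at -0.03 in WT.

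Genes of less mature and of tissue-resident NK cells were higher. In the list of early and stem-like genes 15 of 17 measured members (88.2%, against 22.1% of all genes) had intervals above 0 and 1 below, with a median of 0.34. Il7r, the alpha chain of the interleukin 7 receptor (chromosome 15, 9505788 to 9530176), had 1016 counts in the control and 2685 in the injected library, or 63.4 and 144 CPM. Its log2 ratio of 1.18 (1.08 to 1.29) was the largest among genes with a mean above 50 CPM in which the injected library was higher. Kit, the stem cell factor receptor, had 98.4 and 171 CPM and 0.80 (0.71 to 0.89). Tcf7, which encodes the factor TCF1 of early lymphocytes, had 302 and 413 CPM and 0.45. Bach2 was the member with an interval below 0, at -0.14 (-0.26 to -0.03).

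Of 16 measured genes of type 1 innate lymphoid cells and residency, 10 had intervals above 0 (62.5%) and 2 below (12.5%), and the median was 0.43. Cxcr6, a chemokine receptor of liver-resident lymphocytes, had 29.6 and 53.3 CPM and 0.85 (0.69 to 1.01). Cd200r1, an inhibitory receptor, had 7.62 and 14.0 CPM and 0.87. Zfp683, which encodes the residency factor Hobit, had 11.6 and 18.6 CPM and 0.68, and Il2ra, the high-affinity interleukin 2 receptor chain, 17.9 and 29.8 CPM and 0.73. Cd69 and Rgs2 were the members below, at -0.27 and -0.49. Il7r and several others stand in more than 1 list, so these counts are not separate.

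Late maturation genes leaned lower by small amounts, with 10 of 15 intervals below 0 (66.7%, against 18.9% of all genes), 3 above (20%) and a median of -0.14. The list summed to 13771 CPM in the Irf4-/- control library. At such levels intervals were off 0 more often, so the share of all genes is not a like comparison. Gzmb, the gene of granzyme B, was the member beyond 1.5-fold, with 537 CPM in the control and 355 in the injected library and a ratio of -0.60 (-0.65 to -0.55). Klrg1, an inhibitory receptor of mature NK cells, had 270 and 218 CPM, and Itgam, the gene of CD11b, 1078 and 917. Cx3cr1 was at -0.04 (-0.10 to 0.03) and S1pr5, the sphingosine phosphate receptor for exit from tissue, at -0.04 (-0.08 to 0.00). In the WT pair Cx3cr1 was at -1.47 and S1pr5 at -0.62. The master regulator Tbx21 had 483 and 546 CPM in the Irf4-/- pair, a ratio of 0.18, and 509 and 337 CPM in the WT pair, a ratio of -0.59.

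The genes of killing leaned neither way. Of 20 cytotoxic granule genes 9 had intervals above 0 (45%) and 6 below (30%), against 22.1% and 18.9% of all genes, with a median of 0.02. This list is abundant too, with a sum of 11208 CPM in the Irf4-/- control library, so the shares are not a like comparison. Prf1, perforin, was at 0.08 and Gzma, the most abundant granzyme, at -0.20. Rab27a, needed for granule docking, had 148 and 232 CPM and 0.65 (0.58 to 0.73). Among activating receptors and adaptors the median was 0.04 over 24 genes. Crtam, an adhesion receptor of activated killer cells, stood out with 43.3 and 77.2 CPM and 0.83 (0.70 to 0.97).

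Inhibitory receptors and checkpoints had 9 of 18 intervals above 0 (50%, against 22.1% of all genes) and 5 below (27.8%, against 18.9%). The median was 0.13. Tigit, a receptor that restrains NK cells on binding nectins, had 443 counts in the control and 947 in the injected library, or 27.7 and 50.9 CPM, with 0.88 (0.71 to 1.04). Lag3, another checkpoint receptor, had 19.6 and 27.7 CPM and 0.50. The feedback inhibitor Cish, a brake on interleukin 15 signalling, had 8.93 and 5.53 CPM and -0.68 (-1.07 to -0.32). Pim2, a survival kinase downstream of cytokine receptors, had 311 and 561 CPM and 0.85 (0.80 to 0.90). Fkbp5, a glucocorticoid-inducible immunophilin, had 109 and 211 CPM and 0.95.

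Among cytokines and chemokines Il10, which dampens inflammation, had 120 counts in the control and 371 in the injected library, or 7.49 and 19.9 CPM. Its ratio was 1.40 (1.11 to 1.72). The WT libraries held 4 and 21 counts of Il10, so both Irf4-/- libraries lay above both WT libraries. Tnf had 7.37 and 11.0 CPM and 0.57, and Xcl1, a chemokine that attracts dendritic cells, 116 and 155 CPM and 0.42. Ifng was at 61.9 and 49.0 CPM, a ratio of -0.33 (-0.47 to -0.20). Ccl5 was at -0.09.

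Interferon-stimulated genes leaned lower, with 20 of 30 intervals below 0 (66.7%, against 18.9% of all genes), 1 above and a median of -0.19. Oasl1 had 8.30 and 3.49 CPM and -1.22 (-1.70 to -0.81). The GTPase gene Mx1 had 22.9 and 13.8 CPM and -0.72 (-0.96 to -0.49). Ly6e was the member above, at 534 and 774 CPM and 0.53. Interferon-gamma induced GTPases had a median of -0.11. Genes of MHC class I presentation had 16 of 20 intervals above 0 (80%, against 22.1% of all genes) at a median of 0.11. Ribosomal protein genes had 75 of 78 (96.2%) above 0 at a median of 0.14, and no member of either list reached 1.5-fold. Both lists hold abundant genes, with sums of 19900 and 46282 CPM in the Irf4-/- control library. Intervals excluded 0 more often at high levels, so the share of all genes is not a like comparison for them. Ribosomal protein genes held 4.67% of all counts in the control and 5.09% in the injected library. Mitochondrial genes held 0.962% and 0.976%, and the lists of glycolysis, oxidative phosphorylation, proteasome and sterol synthesis had medians between -0.00 and 0.05.

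**Figure D3:**
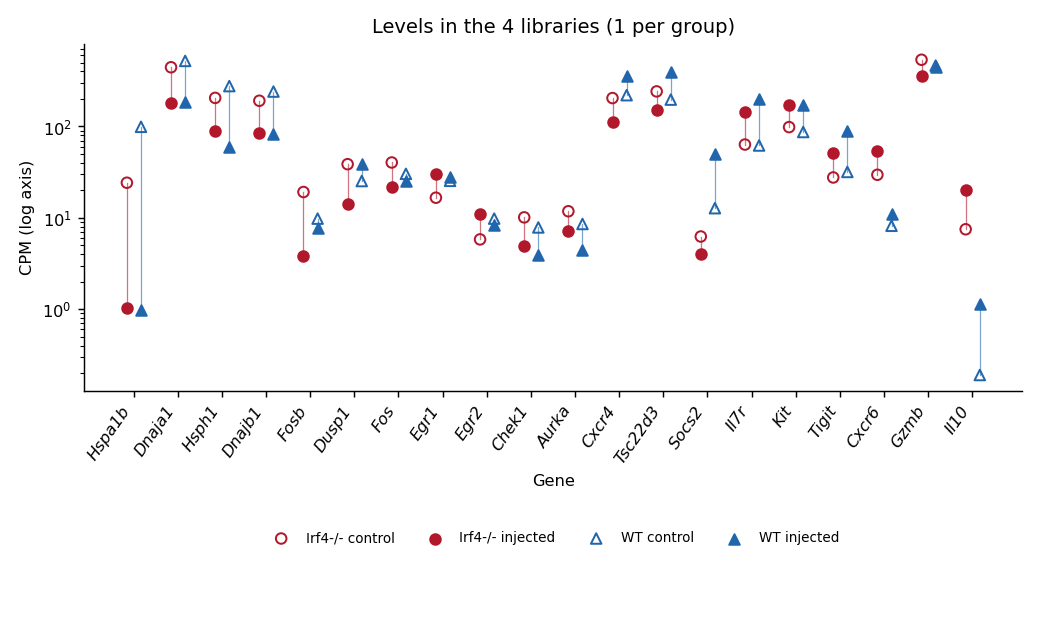
CPM on a log axis of 20 genes in the 4 libraries; circles are the Irf4-/- pair and triangles the WT pair, open for control and filled for injected, with 1 library per group. Hspa1b was near 1 CPM in both injected libraries, while Cxcr4, Tsc22d3 and Socs2 were lower in the injected library of the Irf4-/- pair and higher in that of the WT pair.

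Some of the largest ratios belong to genes that mark other cells. The globin genes Hbb-bs (20.1 and 50.9 CPM), Hba-a1 (16.5 and 39.7) and Hbb-bt (4.25 and 10.5) were past 2-fold, and their log2 ratios were 1.33, 1.26 and 1.29. Their near-identical copies may share reads. Alas2, of haem synthesis, was higher too (1.37 and 3.97 CPM), whereas Car1 (4.56 and 1.07 CPM), Klf1 and Gata1, which mark erythroid precursors, were lower. Summed over 13 erythroid markers the level was 329 CPM in the control and 386 in the injected library. Most of it came from Tfrc and Car2, which had log2 ratios of -0.09 and 0.00.

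Vcam1, an adhesion molecule of splenic macrophages, had 81 and 241 counts, or 5.06 and 12.9 CPM, and a ratio of 1.34 (0.99 to 1.74). Other macrophage genes were higher at low levels, such as Slc40a1, the iron exporter, with 3.68 and 7.09 CPM and C1qc, of complement, with 1.56 and 4.30. Lyz2, the lysozyme of myeloid cells, was lower at 18.6 and 8.22 CPM, and Cd14 had 0.499 and 0.0537 CPM. Of 10 measured macrophage markers 7 had intervals above 0 (70%, against 22.1% of all genes) and 1 below (10%). Their summed level over 22 genes was 828 CPM and 922 CPM, most of it from Ccr2 and Ly6c2, which NK cells also express.

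Some B cell and plasma cell transcripts were lower. Of 10 measured B cell markers 4 had intervals below 0 (40%, against 18.9% of all genes) and 1 above, with a median of -0.16 and sums of 480 and 468 CPM over the whole list. Of the 2 measured plasma cell markers, Prdm1 was below 0 at -0.26, and the interval of Xbp1 held 0. Igkc, the kappa light chain constant region, had 212 and 46 counts and a ratio of -2.37 (-2.91 to -1.96). Fcer2a, the B cell receptor for IgE, had 65 and 9 counts, Jchain 57 and 2, and Igha 27 and 0. Ighm had a ratio of 0.21 (0.14 to 0.28), and Cd74, H2-Aa and H2-Ab1, of MHC class II presentation, lay between -0.07 and -0.02 with intervals that held 0. Cd79a had 9.24 and 5.37 CPM, a ratio of -0.77 (-1.16 to -0.41), and was at -1.36 in the WT pair. How far residual erythroid, macrophage and B cells set these values was not tested.

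Other genes past 2-fold have no list. Gm26917 is annotated as a long noncoding RNA on chromosome 17 (39843013 to 39846341). It went from 12810 to 2027 counts, or 800 to 109 CPM, with -2.88 (-2.95 to -2.81). In the WT pair it had 1315 and 327 CPM. Which transcript its reads come from was not tested. Slc15a2, a transporter of short peptides (chromosome 16), had 598 and 204 counts and -1.76 (-2.01 to -1.54), and Camk2b, a calcium-dependent kinase subunit, 284 and 123 counts and -1.41. Fbxl22 was at -1.73, Gdpd3 at -1.20, the inositol transporter gene Slc5a3 at -1.05, the growth factor gene Mdk at -1.03, Xlr3b at -1.01 and Trip6 at -1.01. Gm26586 was at -1.08.

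On the higher side Ano7, of the anoctamin family, had 56 and 187 counts and 1.49 (1.08 to 1.98). Asph, an aspartyl hydroxylase, had 252 and 688 counts, Nbea 185 and 497, Pltp, the phospholipid transfer protein, 83 and 233, and Tmem106a 162 and 390. Iqsec2 was at 1.05 and Dmrta1 at 1.11. Just under 2-fold lay Hvcn1, a proton channel, at 0.99 (0.87 to 1.11) and Hist1h1e, a linker histone, at -0.95 (-1.44 to -0.51), which fall outside the count although their intervals reach past it. Hist1h1e belongs to the list of replication-dependent histones, of which 4 of 26 reached 5 CPM. All 4 were lower in the injected library, with a median of -0.63. Intervals lay below 0 in 3 (75%, against 18.9% of all genes). The same 4 genes had a median of 0.26 in the WT pair.

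The WT pair, which shares no library with the Irf4-/- pair, spread wider, with an SD over genes of 0.37 and 65.6% of genes within 1.2-fold. Of the 9638 genes that averaged 5 CPM or more in that pair, 403 were higher (4.18%) and 408 lower (4.23%) by 1.5-fold or more. Over the 9523 genes measured in both pairs Pearson's r across genes was 0.443 and Spearman's rho 0.368, values across genes, which are not independent replicates. All 4 libraries were processed in 1 table. Of the 142 genes 1.5-fold higher in the Irf4-/- pair 56 (39.4%) were also 1.5-fold higher in WT and 2 were 1.5-fold lower. Of the 116 lower genes 58 (50%) were also lower and 11 higher. Only 118 of the 142 and 103 of the 116 averaged 5 CPM or more in the WT pair. The others could not be called there, which lowers both shares. Whether the pairs differ could not be tested with 1 library per group.

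Among the 34 genes past 2-fold in the Irf4-/- pair, 25 had the same sign in WT. These were 19 of 21 lower genes (90.5%), where 53.3% of all genes measured in both pairs were lower in WT. Of the higher genes 6 of 13 (46.2%) had the same sign, where 46.7% of all genes measured in both pairs were higher in WT. Both shares of all genes cover only genes at 5 CPM or more in both pairs. This level was reached in WT by 18 of the 21 lower and 6 of the 13 higher genes. The WT sign of the others rests on lower counts, such as 11 and 2 for Ano7. Higher in both pairs were Il7r (1.18 and 1.69 in WT), Vcam1 (1.34 and 2.60), Il10 (1.40 and 2.05) and Dmrta1 (1.11 and 2.02). Tigit, under 2-fold in the Irf4-/- pair, had 668 and 1671 counts in the WT pair. Lower in both were Hspa1b (-4.43 and -6.53), Hsph1 (-1.22 and -2.19) and Fbxl22 (-1.73 and -2.04).

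Other genes were lower in the Irf4-/- pair and higher in WT. Cxcr4, the receptor that holds lymphocytes in bone marrow (chromosome 1, 128588199 to 128592293), had 205 and 111 CPM in the Irf4-/- pair and 220 and 360 CPM in WT. Tsc22d3, a glucocorticoid-induced leucine zipper gene, had 242 and 151 CPM, and in WT 197 and 397 CPM. Zfp36l2 had 1624 and 2754 CPM in WT, Dusp1 25.3 and 38.6 CPM and Rgs1, a brake on chemokine receptor signals, 37.7 and 68.2 CPM. In these 5 genes the 2 control libraries lay nearer to each other than the 2 injected ones did. Txnip, an inhibitor of thioredoxin and of glucose uptake, was at -0.35 in the Irf4-/- pair and 1.58 in WT. The glucocorticoid-responsive Fkbp5 was higher in both pairs, unlike Tsc22d3.

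**Figure D4:**
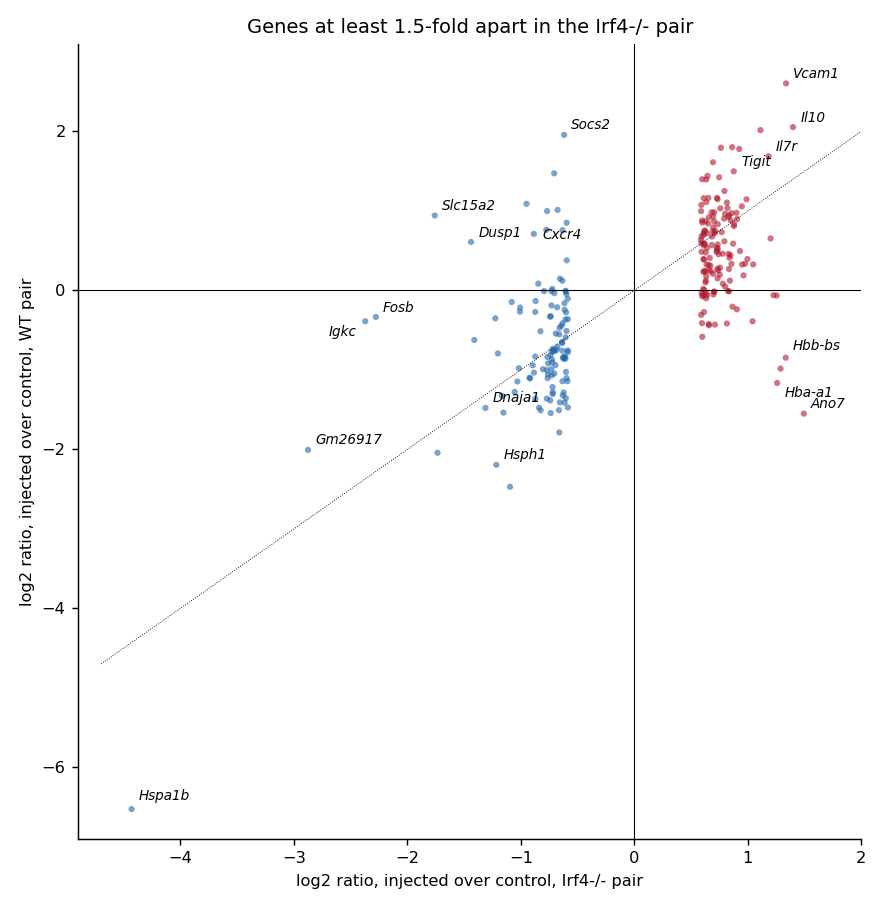
Genes at least 1.5-fold apart in the Irf4-/- pair, with their log2 ratio there on the horizontal axis and in the WT pair on the vertical axis; red genes were higher and blue genes lower in the Irf4-/- pair, and the dotted line marks equal ratios. Blue points above 0 include Slc15a2, Dusp1 and Cxcr4, and red points below 0 include the globin genes and Ano7.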

How the data were processed

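The authors deposited read counts per gene, whole numbers that were not normalized, and FPKM values, in 1 table each for the 4 libraries. The deposited FPKM equalled the count divided by the total and by a gene length in whole bases, to 0.01 bp, in all 72455 nonzero values. Per the submitters' processing notes TopHat and edgeR were used with build mm10. Versions, counting tool, annotation and strandedness were not given in the sources used here, so values of antisense, overlapping and closely similar genes are uncertain. Per the labels' protocols a SMARTER mRNA kit was used. Without molecular identifiers, PCR copies count as reads and are no independent molecules.

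Groups came from sample titles (treated means injected). Symbols and positions came from GENCODE on GRCm38 (34490 of 35275 identifiers matched); counts without a symbol were under 0.09% in each library. Counts were scaled by TMM over 4 libraries in edgeR 4.0.16 on R 4.3.3. Log2 ratios used a prior count of 2. A gene was called when its mean was at least 5 CPM, the ratio at least 2-fold (or 1.5-fold) and its 95% counting interval (Clopper-Pearson, exact) did not include 1. A count of 0 allows up to 3 counts, 0.187 CPM in Irf4-/- control and 0.161 CPM in Irf4-/- injected.

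Of 979 entries in 42 gene and marker lists 968 matched by symbol, 1 by synonym and 10 not, or as a repeat. Members and lists were chosen with earlier results of these data known. Genes named are Irf4, all 2-fold calls, the 15 largest protein-coding ratios each way, up to 8 per list, all measured heat shock and immediate early genes and any marker. Ccl5, Cdc20, Cx3cr1, Fkbp5, Hspa1a, Mcm4, Pcna, Pim2, Plk1 and S1pr5 fall outside this rule and were chosen after their values were seen. Promoters are shown for 2-fold calls of the first 2 lists and the leading cell cycle genes. Values of some genes that were counted are not reported here. The steps were tested on simulated data. Python 3.11.15 with scipy 1.17.1, pandas 2.3.3 and matplotlib 3.10.9 were used. Alternatives were other scalings (DESeq2 1.42.0 median of ratios, upper quartile, library total), minimums, prior counts, folds, FPKM with a pseudocount of 0.1 and abundant families left out.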

Additional observations from a re-analysis of the deposited data

Results flagged for a closer look

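Named genes that were at least 1.5-fold apart in opposite directions in the 2 pairs, each with its counting interval off 0, stand out for a closer look; the difference between pairs was not tested, since each group is 1 library. The log2 ratio in the Irf4-/- pair minus that in the WT pair was -2.70 for the peptide transporter gene Slc15a2, -2.58 for Socs2, a suppressor of cytokine signalling, -2.05 for Dusp1, -2.04 for Hist1h1e, -1.69 for Tsc22d3, -1.60 for Cxcr4, -1.54 for Zfp36l2, -1.45 for Rgs1 and -1.39 for Hist1h1c. These 9 genes were lower after injection in the Irf4-/- pair and higher in the WT pair. For the globin genes the order was the other way, with 2.42 for Hba-a1 and 2.18 for Hbb-bs. Ager and Lamb3 met the same rule but lie outside the rule for named genes and were picked out after their values were seen.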

How the results depend on the processing

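No paired analysis was possible because each group has 1 library and the labels carry no replicate numbers, and leaving out a library leaves a group empty. Scaling by library total, median of ratios, upper quartile or TMM from the 2 Irf4-/- libraries moved the median of all genes by at most 0.0141 on the log2 scale and no list median by more than 0.0141. Counts of calls followed the minimum level. With at least 1 CPM 96 genes were 2-fold higher and 100 lower, and 353 and 313 at 1.5-fold. With at least 20 CPM these were 4 and 6, and 38 and 30. With no filter they were 253 and 350, and 510 and 563. At 3-fold 0 genes were higher and 6 lower. Of the 2-fold genes with at least 20 CPM 5 of 10 had the same sign in WT. Other settings kept each count within 1.5 times, and no list median or named gene with an interval off 0 changed sign. Of 324 named genes tried, 323 stayed within their counting interval by library total and by FPKM. Depth limits genes near 5 CPM most, and no setting replaces a second library.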
